A study of Mus musculus with 6 samples.

Results

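Chromaffin cells of the adrenal medulla and sympathetic neurons arise from the same neural crest lineage and share many transcripts. Transcription factors such as GATA2 help to set up that lineage, whereas stathmins, intermediate filaments and growth cone proteins build and maintain axons. Chromaffin cells keep some of these neuronal transcripts, and the gland also holds nerve fibres and scattered ganglion cells. The 7 genes described here are Gata2, Uchl1, Stmn2, Stmn3, Prph, Nefl and Gap43. Every probe set whose annotation named exactly 1 gene, and that gene among these 7, was taken, which gave 12 of the 12488 probe sets on the array and 7 of the 8251 genes named alone by a probe set. Gata2, Stmn3 and Prph have 2 probe sets each, Stmn2 has 3, and Uchl1, Nefl and Gap43 have 1. A probe set is a group of short oligonucleotides that together query 1 transcript.

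RNA came from adrenal glands of BPH, a hypertensive inbred mouse strain, and of BPL, its hypotensive counterpart, and was hybridised to Affymetrix MG_U74Av2 arrays. There were 3 arrays per strain and no treatment. Age, sex and the number of animals behind an array are not given in the labels, so p-values measure the spread between these arrays, which may be partly technical. The values are intensities on a linear scale without detection calls. Median intensity per array lay between 1003.5 and 1114.7. Skeletal muscle markers stood high on BPH 1 and BPL 2, with a mean log2 intensity of 13.90 and 13.79 against 9.57 to 11.13 on the other 4 arrays. Fat markers averaged 12.59 to 13.06 on the BPH arrays and 13.42 to 14.46 on the BPL arrays on the log2 scale. BPH 1 and BPH 2 were washed and stained on fluidics station 2, and the other 4 arrays on station 1. All BPL arrays were scanned before all BPH arrays, so scan order cannot be told apart from strain in any comparison below. Both parts of the gland were represented on every array. The 9 tested cortex markers, such as Star and Cyp11a1 of steroid synthesis, averaged 15.20 to 15.55 on the log2 scale, and the 11 tested medulla markers averaged 12.75 to 13.86.

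For Uchl1, Stmn3 and Prph, RefSeq on GRCm38.p6 gives 250 bases upstream of an annotated transcription start. They are shown because the results below turn on these genes: Uchl1 and Stmn3 for their relation to the medulla markers, and Prph for its high value on a single array. Capitals mark an E-box (CANNTG, the motif of basic helix-loop-helix factors) or a TATA motif (TATAA), each searched on both strands. The Uchl1 window lies on the plus strand at chr5:66675871-66676120, the Stmn3 window on the minus strand at chr2:181314501-181314750 and the Prph window on the plus strand at chr15:99054924-99055173.
Uchl1: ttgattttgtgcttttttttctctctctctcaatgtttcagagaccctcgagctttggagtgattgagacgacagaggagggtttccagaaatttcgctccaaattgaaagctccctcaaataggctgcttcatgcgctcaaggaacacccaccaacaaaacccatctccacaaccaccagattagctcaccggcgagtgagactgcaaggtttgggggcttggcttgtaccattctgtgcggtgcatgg
Stmn3: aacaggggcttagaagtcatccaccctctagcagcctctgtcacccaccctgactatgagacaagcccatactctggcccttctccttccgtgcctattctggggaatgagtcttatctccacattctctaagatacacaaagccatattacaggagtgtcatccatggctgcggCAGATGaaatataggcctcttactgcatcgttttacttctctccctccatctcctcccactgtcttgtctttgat
Prph: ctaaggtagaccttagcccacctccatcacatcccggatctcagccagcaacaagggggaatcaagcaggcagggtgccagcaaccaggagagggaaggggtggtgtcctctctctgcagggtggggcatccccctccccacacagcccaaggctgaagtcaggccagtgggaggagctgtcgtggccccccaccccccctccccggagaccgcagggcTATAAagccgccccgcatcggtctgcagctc

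The Stmn3 window held 1 E-box and 2 GATA matches, and the Prph window held 1 TATA motif that began 31 bases before the start. No E-box, GATA or TATA match lay in the Uchl1 window. An E-box occurs in 66.2% of the 32851 RefSeq windows of this length, GATA on either strand in 53.6% and TATAA in 22.8%, so these matches are a description of the letters only. Gata2 has 2 annotated windows on chromosome 6, with none of the 3 motifs in either and a GC content of 67.2% and 74.0%. Stmn2, Nefl and Gap43 were not matched in the table.

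No member passed the test between the strains. The question was whether adrenal levels of these transcripts differ between strains of high and low blood pressure. Values under 201.3, the 20th percentile of the table, were set to that floor and taken to log2. Probe sets whose mean log2 value lay under that of the 40th percentile, an intensity of 668.1, were not tested. Of the 12 probe sets, 6 were tested, for Gata2, Uchl1, Stmn2 and Stmn3, and 0 were called by limma at an adjusted p under 0.05, with 0 at an unadjusted p under 0.05. Over all 7293 tested probe sets 2.52% were called and 19.3% had an unadjusted p under 0.05. The median log2 difference, BPH minus BPL, was -0.21 over the 6 tested member probe sets and 0.03 over all tested probe sets, with 2 members positive and 4 negative. The other 6 probe sets were fitted together with all 12422 non-control probe sets without the filter, where 0.419% were called, none of them a member. Among these, Stmn2 at 95668_at had an unadjusted limma p under 0.05 and did not pass after adjustment. In RNA from glands a lower value can stand for fewer cells of a type or for less RNA per cell, and the arrays cannot tell these apart.

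**Figure D1:**
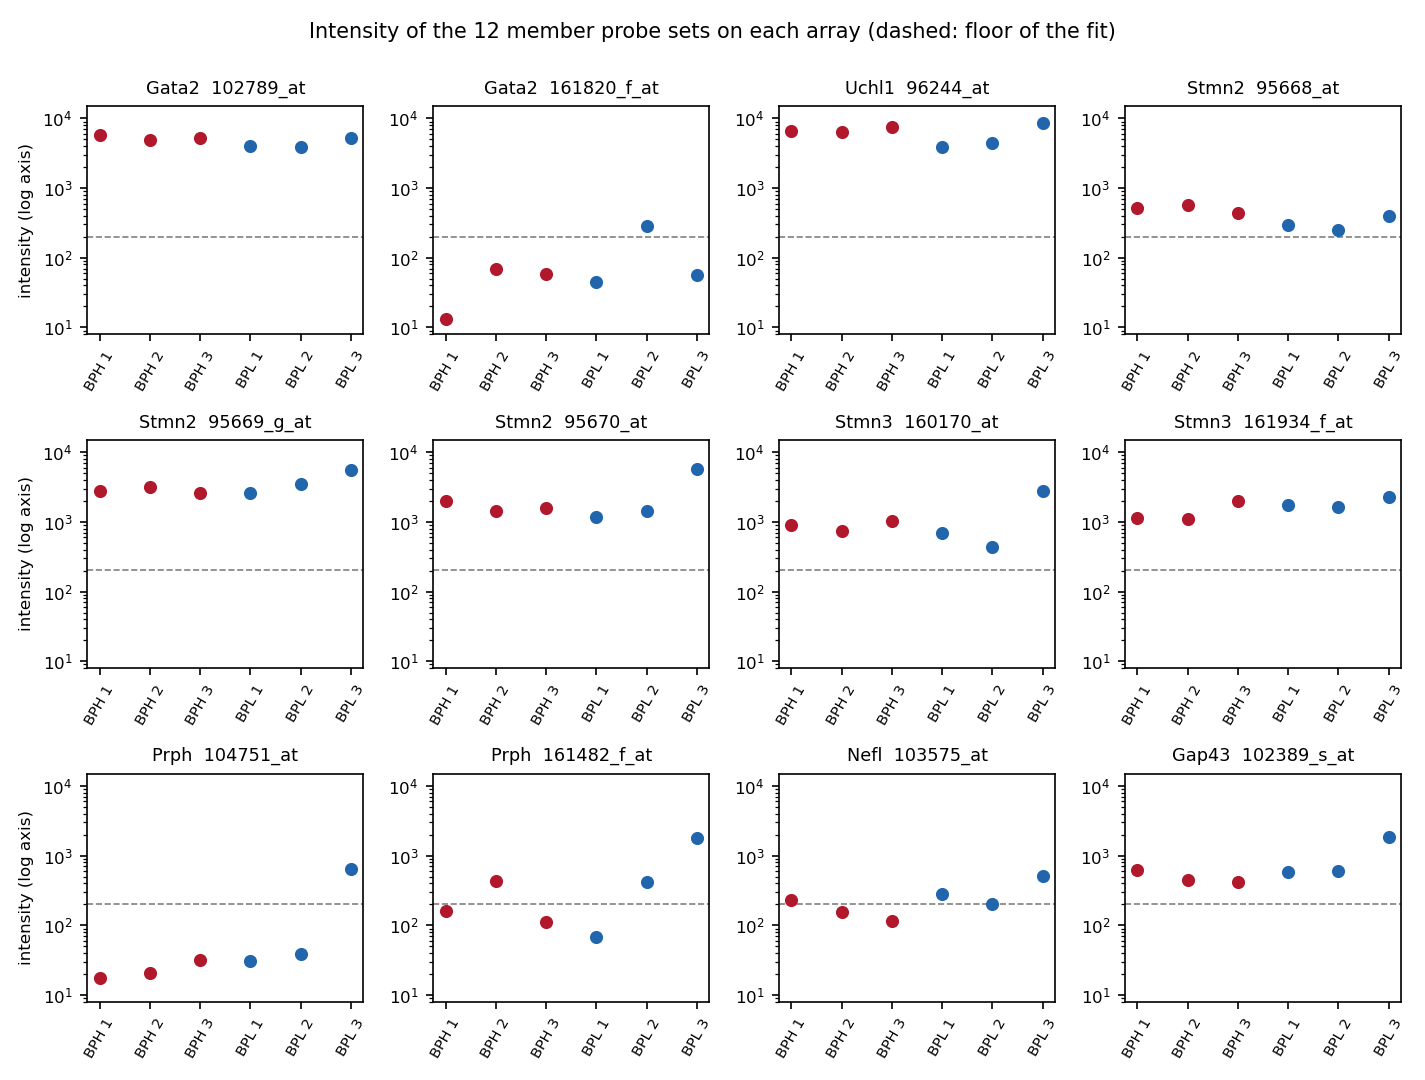
Intensity of each of the 12 member probe sets on the 3 BPH arrays (red) and the 3 BPL arrays (blue), on a log axis with the floor of 201.3 dashed. In 9 of the 12 panels BPL 3 is the highest point, most clearly for both Prph probe sets, Stmn2 95670_at, Stmn3 160170_at and Gap43.

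Gata2 encodes a zinc finger transcription factor of sympathoadrenal, blood and endothelial cells. Its probe set 102789_at had intensities of 5776, 4824 and 5209 on BPH 1, 2 and 3, against 3998, 3940 and 5191 on BPL 1, 2 and 3. All BPH arrays lay above BPL 1 and BPL 2, and BPL 3 fell within the BPH range. The means were 5270 ± 479 in BPH and 4376 ± 706 in BPL (SD, n = 3 arrays each), a log2 difference of 0.28 (SE 0.15, limma adjusted p = 0.347). It was 0.26 within station 1, where BPH 3 alone stands for BPH, and 0.14 when BPH 1 and BPL 2, high in muscle markers, were left out. The second Gata2 probe set, 161820_f_at, lay below the floor on 5 of 6 arrays, with 285.3 on BPL 2 as the exception, and gives no level for comparison. The ending _f_at marks probe sets whose probes are shared within a sequence family.

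Uchl1 encodes a ubiquitin hydrolase that is abundant in neurons and neuroendocrine cells. It had intensities of 6680, 6289 and 7418 on BPH 1, 2 and 3, against 3874, 4458 and 8621 on BPL 1, 2 and 3. BPL 3 was the highest array of all 6, and the other BPL arrays were the lowest. Means were 6796 ± 573 for BPH and 5651 ± 2589 for BPL (SD, n = 3 arrays each). The log2 difference of 0.36 had an SE of 0.27 (limma adjusted p = 0.496). Within station 1 it was 0.49, and leaving out BPH 1 and BPL 2 gave 0.24.

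Stathmins bind tubulin dimers and regulate microtubule turnover, and Stmn2 and Stmn3 are the neuronal forms found in growth cones. The 3 Stmn2 probe sets did not follow each other. Probe set 95670_at had 2014, 1436 and 1605 on BPH 1, 2 and 3, against 1176, 1439 and 5726 on BPL 1, 2 and 3. BPL 3 stood 2.84-fold above the next array, and the remaining 5 arrays overlapped. The log2 difference was -0.35 (SE 0.51, limma adjusted p = 0.747). Probe set 95669_g_at had 2798, 3127 and 2601 on the BPH arrays, against 2572, 3464 and 5564 on the BPL arrays, again with BPL 3 highest. Its log2 difference was -0.37 (SE 0.25, limma adjusted p = 0.454).

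Probe set 95668_at of Stmn2 ran the other way. It had 519.0, 577.4 and 437.6 on the BPH arrays, against 292.0, 249.2 and 400.4 on the BPL arrays. It was the 1 member probe set of 12 whose strains did not overlap, where 21.3% of all non-control probe sets did not. Its log2 difference was 0.72 (SE 0.22, limma adjusted p = 0.278 without the filter). Over the 6 arrays its log2 values correlated with those of 95669_g_at at r = -0.06 and with those of 95670_at at r = 0.19, while 95669_g_at and 95670_at correlated with each other at r = 0.88. Over the 5 arrays other than BPL 3 that correlation was 0.01. These are correlations over 6 arrays that share 1 high array, given as a description.

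Stmn3 at probe set 160170_at had 913.6, 744.6 and 1043 on the BPH arrays, against 694.3, 429.7 and 2729 on the BPL arrays. BPL 3 stood 2.62-fold above the next array, and BPL 1 and BPL 2 were the 2 lowest. The log2 difference was -0.07 (SE 0.59, limma adjusted p = 0.961), and its sign turned to 0.16 within station 1. Probe set 161934_f_at of Stmn3 had 1139, 1114 and 1967 on the BPH arrays, against 1739, 1622 and 2250 on the BPL arrays. BPH 1 and BPH 2, the arrays of station 2, were the lowest. The log2 difference was -0.45 (SE 0.26, limma adjusted p = 0.373) and 0.09 within station 1.

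Peripherin, encoded by Prph, and the neurofilament light chain, encoded by Nefl, are intermediate filaments of neurons, peripherin chiefly of peripheral ones. Prph at 104751_at had 17.6, 20.6 and 31.8 on the BPH arrays, against 30.5, 38.4 and 650.9 on the BPL arrays. All arrays but BPL 3 were below the floor, so BPL 3 was at least 3.23-fold above each of them on the floored scale. At 161482_f_at Prph had 160.7, 431.3 and 110.9 on the BPH arrays, against 68.0, 419.2 and 1791 on the BPL arrays, with BPL 3 standing 4.15-fold above the next array. The log2 differences, fitted without the filter, were -0.56 (SE 0.51) and -1.04 (SE 0.91), each with a limma adjusted p of 0.671.

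Nefl had 231.7, 154.7 and 113.6 on the BPH arrays, against 281.1, 204.8 and 509.2 on the BPL arrays. BPH 2 and BPH 3 were below the floor, and BPL 3 was the highest. The log2 difference was -0.55 (SE 0.36, limma adjusted p = 0.591). Gap43 encodes a membrane protein of growing axons and had 619.7, 451.0 and 421.2 on the BPH arrays, against 583.2, 605.6 and 1863 on the BPL arrays. BPL 3 stood 3.01-fold above the next array, and the other 5 overlapped. The log2 difference was -0.83 (SE 0.54, limma adjusted p = 0.592), again without the filter.

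BPL 3 stood apart for most of these genes. It was the highest array for 9 of the 12 member probe sets (75%), which come from 6 of the 7 genes, where 16.4% of all non-control probe sets were highest on BPL 3. It stood at least 2-fold above each of the other 5 arrays for 5 of the 12 (41.7%), against 1.08% of all non-control probe sets. Probe sets of 1 gene share a transcript and are not independent. A single array allows no test of its difference from the rest.

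Without BPL 3 the members fell into other positions. BPL 3 was singled out by the values of these same genes. Where it is the highest BPL array, leaving it out raises BPH minus BPL by construction. The values without it are therefore a description and no separate support for a strain difference. The BPH arrays then lay wholly above the remaining 2 BPL arrays for 4 of the 12 probe sets, those of Gata2 (102789_at), Uchl1, Stmn2 (95668_at) and Stmn3 (160170_at), where 17.3% of all non-control probe sets did so. Uchl1 was called with a log2 difference of 0.71 (SE 0.14, limma adjusted p = 0.0346), the 1 called member of 6 tested, where 4.81% of all tested probe sets were called. The difference was 0.41 (SE 0.14, limma adjusted p = 0.128) for Gata2 and 0.71 (SE 0.35, limma adjusted p = 0.278) for Stmn3 at 160170_at. For Stmn2 it was 0.91 (SE 0.17, limma adjusted p = 0.156 without the filter) at 95668_at, 0.36 at 95670_at and -0.07 at 95669_g_at. It was -0.31 for Stmn3 at 161934_f_at, -0.28 for Gap43, -0.19 for Nefl and -0.16 for Prph at 161482_f_at, none of them called. When any other array was left out instead, 0 members were called.

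**Figure D2:**
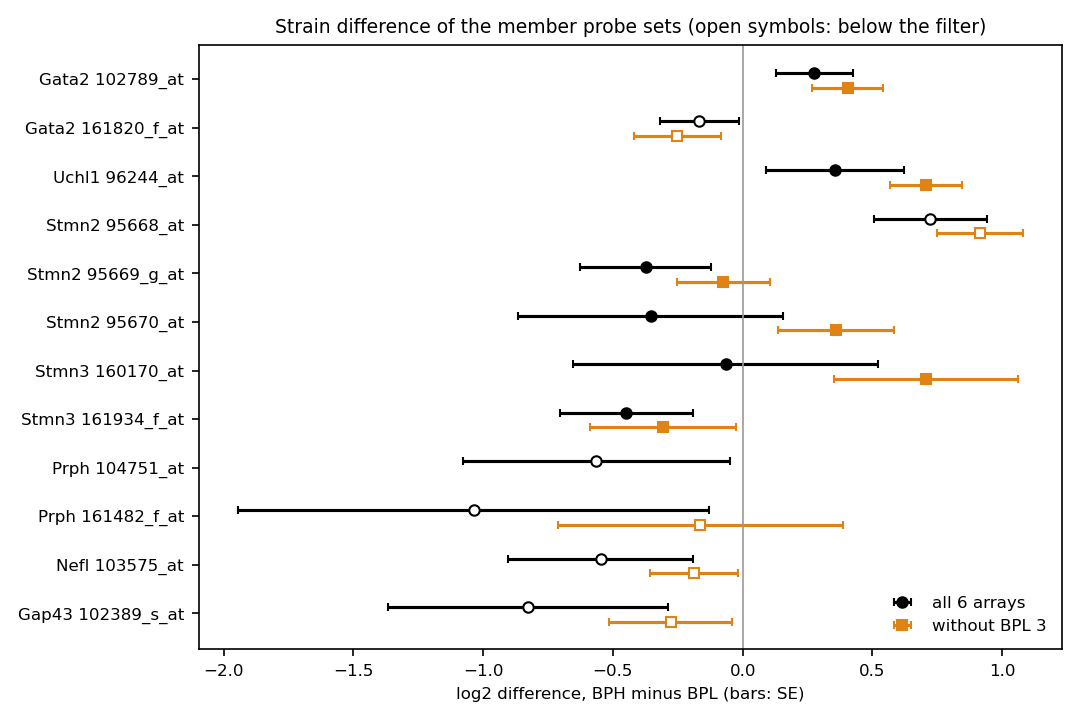
Log2 difference, BPH minus BPL, of each member probe set with its SE from limma, over all 6 arrays (black circles) and without BPL 3 (orange squares), with open symbols for probe sets below the filter. Stmn2 95670_at moves to 0.36 and Stmn3 160170_at to 0.71 without BPL 3, against -0.35 and -0.07 with it. Prph 104751_at has no value without BPL 3 because the other 5 arrays lie at the floor.

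Medulla marker levels were spread more widely among the BPL arrays than among the BPH arrays. A medulla index was taken as the mean log2 intensity of 11 chromaffin markers that are not among the 7 genes: Th, Ddc and Pnmt of catecholamine synthesis, the granule genes Chga, Chgb, Scg2, Scg5, Cyb561 and Pcsk1, and the peptide genes Penk and Npy. The index was 13.79, 13.55 and 13.81 on BPH 1, 2 and 3, against 13.04, 12.75 and 13.86 on BPL 1, 2 and 3. BPL 3 had the highest index, and BPL 1 and BPL 2 the lowest. The lead of BPL 3 over BPH 3 and BPH 1 was narrow. With Th, Pnmt, Chga and Chgb alone BPL 3 lay below both (15.25 against 15.46 and 15.52). The means were 13.72 ± 0.14 in BPH and 13.22 ± 0.58 in BPL (SD, n = 3 arrays each), a log2 difference of 0.50 (two-sided exact permutation p = 0.4, where 3 arrays against 3 cannot go below 0.1). Without BPL 3 the difference was 0.82. Of the 11 markers 10 were higher in BPH, where 3044 of all 5555 tested genes were, and their median log2 difference was 0.61. Penk alone was called between the strains, at 0.61 (SE 0.13, limma adjusted p = 0.0472). Over all tested genes 2.43% were called in either direction. Penk was not high on BPL 3, with 5438 against 5899 on BPL 1 and 5444 on BPL 2.

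Gata2 and Uchl1 followed the index in part, and Stmn3 had the same order. Over the 6 arrays, Pearson's r with the index was 0.94 for Gata2 at 102789_at (exact permutation p = 0.0111, adjusted p = 0.108) and 0.92 for Uchl1 (exact permutation p = 0.0181, adjusted p = 0.108). Spearman's rho was 0.77 for Gata2 (exact permutation p = 0.103, adjusted p = 0.308) and 0.94 for Uchl1 (exact permutation p = 0.0167, adjusted p = 0.1). For Stmn3 at 160170_at r was 0.78 (exact permutation p = 0.0417, adjusted p = 0.167) and rho was 1 (exact permutation p = 0.00278, adjusted p = 0.0333), the smallest p that 720 pairings allow. Adjustment was over the 12 probe sets for each measure, and this rho was the 1 value of all that passed. It depends on the narrow lead of BPL 3 in the index. BPL 1 and BPL 2 lie farthest from the median of the index. Without them r over the other 4 arrays was 0.60 for Gata2, 0.81 for Uchl1 and 0.70 for Stmn3. Within station 1, also 4 arrays, r was 0.98 for Gata2, 0.93 for Uchl1 and 0.88 for Stmn3 at 160170_at. A value over 4 arrays is a description only, and a strain has 3. A high r with the index was not particular to these genes. Among the 9 tested cortex markers r over the 6 arrays ran from -0.37 for Fdx1 to 0.95 for Nr5a1. The fat marker Fabp4 had r = -0.98.

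For the remaining probe sets r spread widely. Stmn2 had r = 0.82 at 95668_at (exact permutation p = 0.0694, adjusted p = 0.208; -0.88 over the 4 arrays), 0.58 at 95670_at and 0.21 at 95669_g_at. The value was 0.25 for Gap43, 0.30 for Nefl, 0.20 for Prph at 161482_f_at and 0.03 for Stmn3 at 161934_f_at. The last was 0.94 within station 1. The index was 13.55 to 13.81 on the BPH arrays and 13.86 on BPL 3, whereas BPL 3 minus the BPH mean was 1.78 on the log2 scale for Stmn2 at 95670_at. The same difference was 1.61 for Stmn3 at 160170_at, 1.93 for Gap43, 1.27 for Nefl and 2.79 for Prph at 161482_f_at. It was -0.02 for Gata2 at 102789_at and 0.35 for Uchl1.

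**Figure D3:**
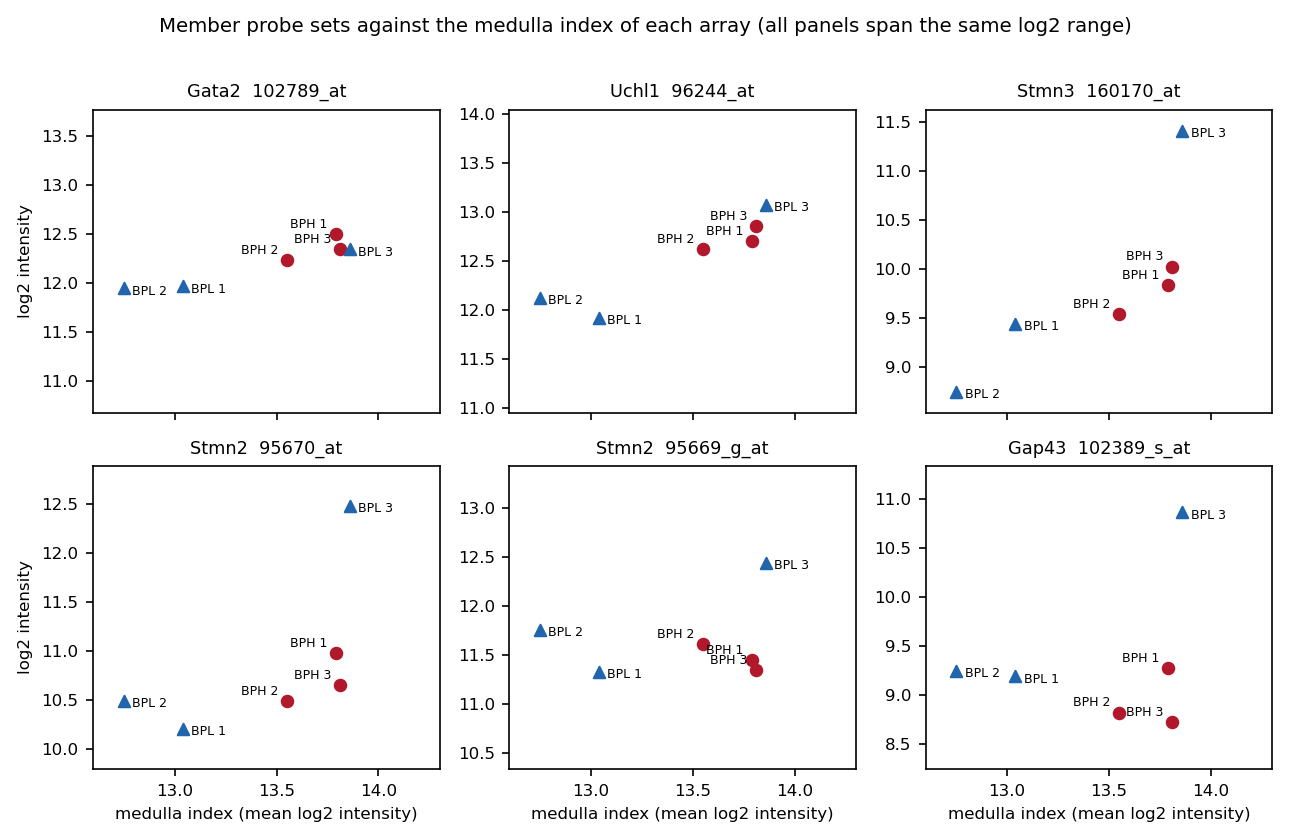
Log2 intensity of 6 member probe sets against the medulla index of each array, with BPH arrays as red circles and BPL arrays as blue triangles. Gata2 and Uchl1 are low on BPL 1 and BPL 2 and high on the other 4 arrays, while Stmn2 and Gap43 stand apart only on BPL 3.

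Set against the medulla markers of the same array, 11 of the 12 probe sets (91.7%) had a negative difference, BPH minus BPL. The share was 91.7% of all non-control probe sets as well, since the subtracted index is itself 0.50 higher in BPH, so the sign says nothing about the members. The log2 value minus the index differed between the strains by -0.22 for Gata2 at 102789_at and -0.14 for Uchl1 (exact permutation p = 0.4 and 0.5). It differed by -0.87 for Stmn2 at 95669_g_at, -0.95 for Stmn3 at 161934_f_at, -1.06 for Prph at 104751_at, -1.05 for Nefl and -1.33 for Gap43, each with an exact permutation p of 0.1, the smallest possible, and an adjusted p of 0.24. For these 5 of 12 probe sets (41.7%) every BPH array lay below every BPL array after the index was subtracted, where 13.4% of all non-control probe sets did so. Prph at 104751_at counts among them although 5 of its arrays sit at the floor, so that its order there is that of the index alone.

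With the index as a covariate in limma none of the 6 tested members was called, where 0.85% of all tested probe sets were. The log2 differences became -1.34 (SE 0.31, limma adjusted p = 0.119) for Stmn2 at 95670_at and -1.24 (SE 0.29, limma adjusted p = 0.119) for Stmn3 at 160170_at. They were 0.08 (SE 0.14) for Gata2 at 102789_at and -0.13 (SE 0.18) for Uchl1. When BPL 1 or BPL 2 was left out of this fit Stmn2 at 95670_at was called, at -1.50 (limma adjusted p = 0.0309) and -1.33 (limma adjusted p = 0.0399). It was the 1 member called in each, and its value on BPL 3 was 2.84-fold above the next array. The share of all probe sets called in those fits was not taken, so these calls have no background beside them. Without BPL 3 no member was called in it.

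Other genes of neuronal and chromaffin identity were also mostly highest on BPL 3. Of 44 listed genes, 37 were on the array and 15 passed the filter. BPL 3 was the highest array for 12 of the 15 (80%), against 14.8% of all 5555 tested genes, each taken at its brightest tested probe set. A high value on BPL 3 helps a gene to pass the filter. Over all 37 genes without the filter BPL 3 was highest for 23 (62.2%), against 16% of all 8251 genes. Of the 14 that passed the filter on the other 5 arrays it was highest for 11 (78.6%), against 14.2% of all genes that passed it. For the 15 genes, BPL 3 exceeded the mean of BPL 1 and BPL 2 by at least 1 on the log2 scale for 6, against 1.78% of all tested genes, and the median excess was 0.72 for the list and 0.02 for all tested genes. Tubb3, the neuronal beta tubulin, had 3944, 4175 and 3570 on the BPH arrays, against 3522, 3818 and 10362 on the BPL arrays. Snap25, a synaptic vesicle fusion protein singled out after its values were seen, had 1521, 917.5 and 1222 on the BPH arrays, against 869.2, 541.0 and 3029 on the BPL arrays.

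Medulla markers were also higher on BPL 3 than on the other BPL arrays, and markers of 5 other cell types had medians near or below 0. The median of BPL 3 minus the mean of BPL 1 and BPL 2 was 0.91 on the log2 scale for the 11 medulla markers, 0.07 for 9 cortex markers, 0.06 for 6 Schwann and glial markers and -0.03 for 9 endothelial markers. It was -0.86 for 8 fat markers and -1.70 for 9 skeletal muscle markers, both of which were higher on BPL 2. BPL 3 was the highest array for 4 of the 11 medulla markers (36.4%), namely Ddc, Cyb561, Npy and Scg5, and not for the other 7. The part of medulla content or of other tissue in the high neuronal values of BPL 3 was not tested.

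**Figure D4:**
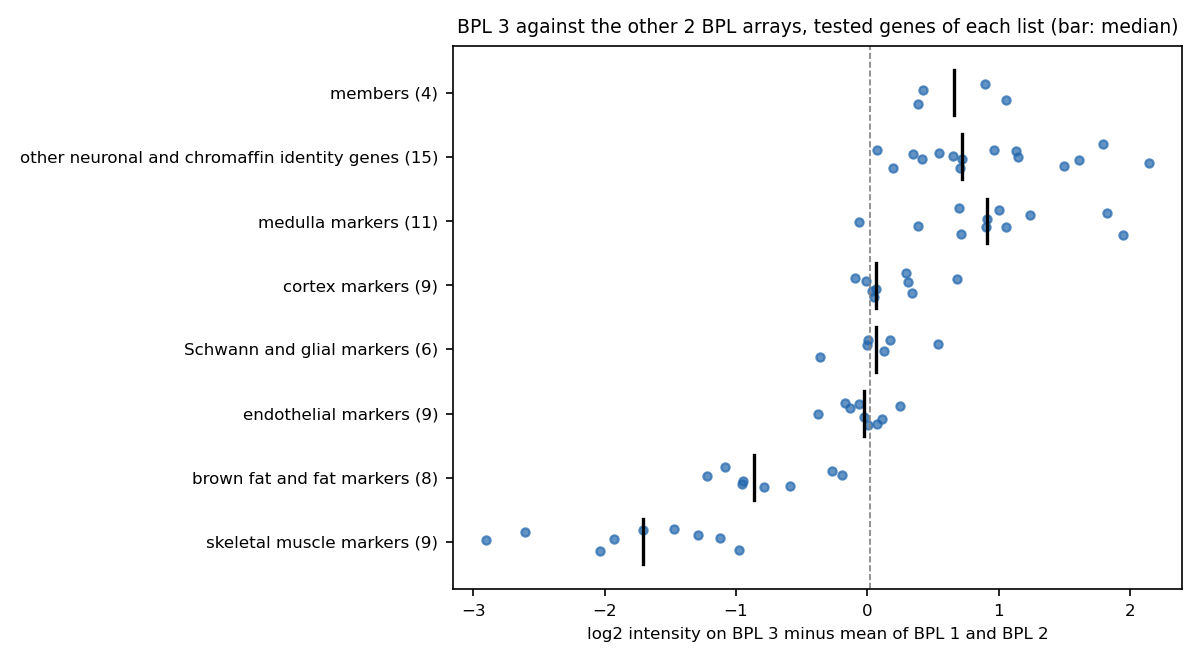
Log2 intensity on BPL 3 minus the mean of BPL 1 and BPL 2 for each tested gene of 8 lists (number tested in brackets), with a bar at the list median and a dashed line at 0.02, the median of all tested genes. The 15 other identity genes all lie above 0, with a median of 0.72, and the 9 cortex markers have a median of 0.07.

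Between the strains, 1 of the 15 other identity genes was called and it was lower in BPH, where 2.43% of all tested genes were called in either direction. The median log2 difference of the list was 0.01, against 0.04 over all tested genes, with 8 of 15 positive. The called gene was Mapt, which encodes the microtubule protein tau. At 102431_at it had 2499, 2502 and 2580 on the BPH arrays, against 5323, 4534 and 5158 on the BPL arrays. The strains did not overlap, as was so for 21.3% of all non-control probe sets, and BPL 3 lay between BPL 2 and BPL 1. The log2 difference was -0.98 (SE 0.13, limma adjusted p = 0.00605). A second Mapt probe set, 102742_g_at, was called at -0.99 (SE 0.18, limma adjusted p = 0.0308), and another, 102743_at, was not, at -0.21 (SE 0.35, limma adjusted p = 0.782). Within station 1 the difference at 102431_at was -0.95 and not called (limma adjusted p = 0.318).

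None of the next smallest p-values in that list led to a call. The log2 differences were -0.55 for Stmn4 and -0.26 for Stmn1, the other stathmins on the array, 0.28 for the synaptic gene Cplx2, 0.37 for the neuronal enolase gene Eno2 and -0.42 for Tubb3. The limma adjusted p lay between 0.283 for Stmn4 and 0.556 for Tubb3. Without BPL 3 the reticulon gene Rtn1 was called as well, at 0.83 (SE 0.17, limma adjusted p = 0.0376). Its intensities were 3050, 2526 and 3042 on the BPH arrays, against 1708, 1512 and 5582 on the BPL arrays. As for Uchl1, BPL 3 was the highest array and the other BPL arrays the lowest, so leaving BPL 3 out raises the difference by construction.

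The tested genes with the most similar profile over the 6 arrays were found for each member at its brightest probe set, by Pearson's r among 5554 or 5555 genes. For Prph at 161482_f_at they were Stmn2 at 95669_g_at (r = 0.99) and Map6 (r = 0.97), a microtubule-stabilising protein, and for Stmn2 they were Map6 (r = 0.97) and Acot8 (r = 0.95). Gata2 was closest to Abcc3 and Cyba (both r = 0.99), and Uchl1 to Cnot8 (r = 1.00) and Dap (r = 0.99). The nearest genes to Stmn3 at 161934_f_at were Atg4b (r = 0.99) and Erlin1 (r = 0.98). Pafah1b1 (r = 0.98) and Col6a1 (r = 0.97) were nearest to Nefl, and Rprd1b (r = 0.98) and Snrpc (r = 0.97) to Gap43. Between 1 and 51 genes had r over 0.95 with a member. That count was not taken for genes outside the members, so it has no background. The named genes have the highest of 5554 or 5555 values over only 6 arrays, so a high r can arise by selection alone. BPL 3 was the highest array for each of these member probe sets except that of Gata2, which was highest on BPH 1. The names are a description only, and co-expression was not tested.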

How the data were processed

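The deposited table holds 1 intensity per probe set and array on a linear scale. Which software made it is not stated in the labels or files. With 2% trimmed at each end, array means were 2501.3 to 2501.5, which shows that scaling preceded deposit, and none was added. The array run files give chip type, chip lot (1 lot), fluidics station and scan order, per the file headers. Values were floored at 201.3 and taken to log2. The 66 control probe sets and those with a mean log2 under that of 668.1 were left out. BPH minus BPL was fitted by lmFit and eBayes with an intensity trend (limma 3.58.1, R 4.3.3), with Benjamini-Hochberg adjustment over all tested probe sets, and checked on simulated data. Tests are two-sided, and the number of arrays limits the precision. Of 10855 probe sets with 1 gene, 10839 were matched by gene number to RefSeq (GRCm38.p6) for current symbols; 396 had several genes and 1237 none. Named genes are all members, the genes of a described list with the smallest p or called, and for each member the 2 genes with the highest r. The members, lists and tests were chosen with earlier results of these data known. Alternatives covered scaling, floor or offset, filter, trend, blocks, left-out arrays and the markers of the index. Slc18a1, Slc18a2 and Pcsk2 of the medulla list were not analysed here. Figures were drawn with matplotlib 3.10.9.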

Additional observations from a re-analysis of the deposited data

How the results depend on the processing

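Over 165 refits of single member probe sets, 157 kept the direction and the side of the threshold, 7 changed sign and 1 (Uchl1 without BPL 3, 0.71) became called. A change of filter, trend or replicate block leaves the log2 difference itself as it was, so those refits could not change sign. The tally is therefore no measure of stability. Blocking on the fluidics station, or keeping station 1 alone, leaves BPH 3 as the only BPH array that informs the contrast. Stmn3 then turned to 0.16 at 160170_at and 0.087 at 161934_f_at, and 0 of the other identity genes were called. When 1 array was left out, the log2 difference ran from -0.63 to 0.71 for Stmn3 at 160170_at and from -0.78 to 0.36 for Stmn2 at 95670_at, the count of called members from 0 to 1, that of other identity genes from 1 to 2, and that of members at equal medulla index from 0 to 1. With Th, Pnmt, Chga and Chgb alone as the index, 1 relation passed, that of Gata2 at 102789_at (r = 0.92, exact permutation adjusted p = 0.0167), while r was 0.77 for Uchl1 and 0.62 for Stmn3 at 160170_at (exact permutation adjusted p = 0.267 and 0.473). BPL 3 was not the highest array in that 4-marker index (15.25, against 15.52 on BPH 1 and 15.46 on BPH 3). Stmn3 at 160170_at, highest on BPL 3, therefore did not keep the order of the index. A filter on the mean intensity, added after seeing the data, let Gap43 through and called 0 members. The tallies of the highest array without the filter or with BPL 3 kept out of it, and the correlations within station 1, were also added then. Replicate numbers did not pair the arrays. Same-numbered arrays had deviations that correlated at -0.219, -0.084 and 0.012, not every array was closest to its own number, and with the replicate block 0 of 6 members were called. Where all arrays of a fit lay at the floor (Prph 104751_at without BPL 3, and Gata2 161820_f_at without BPL 2 or without the arrays with skeletal muscle transcripts) no value was had. Without detection calls, values near the floor have no known distance from background.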

Other observations

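Transcription factor genes of the sympathoadrenal lineage were mostly below the filter and were fitted without it. Isl1 had intensities of 246.1, 294.9 and 192.5 on BPH 1, 2 and 3, against 372.6, 458.9 and 788.2 on BPL 1, 2 and 3. The strains did not overlap, as was so for 21.3% of all non-control probe sets. The log2 difference was -1.07 (SE 0.33, limma adjusted p = 0.283), short of the threshold. Phox2a had 949.3, 478.0 and 1121 on the BPH arrays, against 388.4, 159.4 and 586.1 on the BPL arrays, a log2 difference of 1.16 (SE 0.54, limma adjusted p = 0.445). Hand2 had 623.2, 405.3 and 552.2 on the BPH arrays, against 603.0, 168.0 and 845.8 on the BPL arrays, a log2 difference of 0.15. BPH 3 for Isl1, and BPL 2 for Phox2a and Hand2, lay below the floor of 201.3 and entered the fit at that floor. Insm1 differed by 0.39 and was lowest on BPL 3 (412.9), and Sox11 differed by 0.59, neither of them called. Of those above the filter, Hand1 differed by -0.05 and Gata3 by 0.01. These transcription factor genes were all singled out after their values were seen. Of the heavier neurofilament genes, Nefm lay below the floor on all 6 arrays and gives no profile. Nefh had 458.5, 727.6 and 379.0 on the BPH arrays, against 469.8, 136.0 and 1319 on the BPL arrays, with BPL 2 below the floor.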
